A study of Mus musculus with 6 samples.

Results

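The nuclear genes of respiratory complexes II to V, with cytochrome c, were followed in atherosclerotic brachiocephalic arteries of mice with and without a deletion of Col15a1. They were taken by name: the gene names Sdha to Sdhd, those that begin with Uqcr or Atp5, Cyc1, Cycs, and the Cox4 to Cox8 names with a letter a, b or c. A total of at least 60 counts over the 6 libraries was required. Of 24391 genes in the table, 47 names matched and 45 genes met the minimum. The others, Cox8c and Cox7b2, were at 0 counts in every library. The 45 genes comprise 4 of complex II, 9 of complex III, 13 of complex IV, 15 of complex V, the electron carrier cytochrome c (Cycs), and 3 that match by name but encode no subunit of these complexes (Cox7a2l, Atp5s and Atp5sl). Cox4i1 and Cox4i2 fall outside the name rule and are given with the other genes of the pathway.

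RNA was sequenced from the arteries of 3 wild-type (WT) and 3 Col15a1-/- (KO) mice. All had a C57BL/6 background and were fed a Western diet for 18 weeks, and no age, Apoe genotype or Cre driver is named in the labels. By the series title the gene was deleted in smooth muscle cells, while the labels give the genotype as Col15a1-/- without a cell type. The labels describe the lesion as mixed tissue, and each value therefore averages over different cells. The comparison of KO with WT asks how transcript levels in the lesion differ with the deletion of Col15a1, which encodes type XV collagen.

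The respiratory chain sits in the inner mitochondrial membrane. Complex II, succinate dehydrogenase, is also an enzyme of the citric acid cycle and passes electrons to ubiquinone. Complex III moves them from ubiquinol to cytochrome c, complex IV passes them from cytochrome c to oxygen, and complex V, the ATP synthase, uses the proton gradient that the chain builds up. All subunits of complex II are encoded in the nucleus, while complexes III, IV and V also hold subunits of the mitochondrial genome, which were not analysed here. Heart, skeletal muscle and brown fat are known for a high content of these complexes.

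Nuclear genes of the respiratory chain are known targets of NRF1, of the ETS factor GABP and of YY1, so their promoters were searched for exact copies of 3 motifs on both strands: CGCATGCG (NRF1, its own reverse complement), CCGGAAGT (ETS family) and AAGATGGC (YY1). RefSeq promoter windows (GRCm38.p6, 250 bases before to 50 bases after the start) were at hand for 37 of the 45 genes. The 120 bases before the start are printed here for 4 genes that hold a match, with the match in capitals, and for Cox7a1 and Cox8b, the members with the largest fold changes, which hold none.
Cycs: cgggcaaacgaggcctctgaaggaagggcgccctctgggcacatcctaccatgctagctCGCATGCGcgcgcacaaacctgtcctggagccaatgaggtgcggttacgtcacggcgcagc
Atp5k: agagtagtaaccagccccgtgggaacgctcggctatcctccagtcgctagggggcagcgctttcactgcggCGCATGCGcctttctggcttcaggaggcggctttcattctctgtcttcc
Atp5g2: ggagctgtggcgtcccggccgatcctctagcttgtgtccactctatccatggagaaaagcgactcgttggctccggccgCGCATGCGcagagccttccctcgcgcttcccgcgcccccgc
Uqcr11: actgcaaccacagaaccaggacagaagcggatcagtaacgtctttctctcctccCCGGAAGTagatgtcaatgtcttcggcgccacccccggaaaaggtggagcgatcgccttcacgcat
Cox7a1: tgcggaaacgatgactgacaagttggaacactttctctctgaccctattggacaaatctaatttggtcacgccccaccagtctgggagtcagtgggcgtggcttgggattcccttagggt
Cox8b: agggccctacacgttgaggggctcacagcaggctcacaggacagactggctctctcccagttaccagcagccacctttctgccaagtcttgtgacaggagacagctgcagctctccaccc
These stretches lie at chr6:50566570-50566689 (Cycs), chr5:108434400-108434519 (Atp5k), chr15:102671048-102671167 (Atp5g2), chr10:80406822-80406941 (Uqcr11) and chr7:140900447-140900566 (Cox8b), all on the minus strand, and at chr7:30184051-30184170 on the plus strand for Cox7a1. The match begins at position -61 in Cycs, -49 in Atp5k, -41 in Atp5g2 and -66 in Uqcr11, counted from the base before the start as -1. The Uqcr11 window holds a second motif as well: a CGCATGCG match begins at -5 and runs past the start, so the printed stretch ends in its opening bases, left in lower case.

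In the 300-base windows CGCATGCG was found in 8 of 37 members (21.6%, exact 95% binomial interval 9.83% to 38.2%) and in 2.07% of the 27025 genes with a window. CCGGAAGT was found in 4 of 37 members (10.8%, 3.03% to 25.4%) against 4.31% of all genes, and AAGATGGC in 4 of 37 (10.8%, 3.03% to 25.4%) against 3.19%. From 100 bases before to 50 after the start, CGCATGCG was found in 5 of 37 members (13.5%, 4.54% to 28.8%) and in 1.53% of all genes. CCGGAAGT and AAGATGGC were each found in 4 of 37 there, against 3.47% and 2.02% of all genes. In the longer windows at least 1 of the 3 motifs was present in 14 of 37 members: 7 of 14 in complex V, 3 of 5 in complex III, 2 of 11 in complex IV, 0 of 3 in complex II, Cycs, and 1 of the 3 genes that are no subunit. This joint count was not made over all genes, so it and its split by complex have no background to be read against. A match is a string of letters and not a measured site, and no binding was measured in these arteries.

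**Figure D1:**
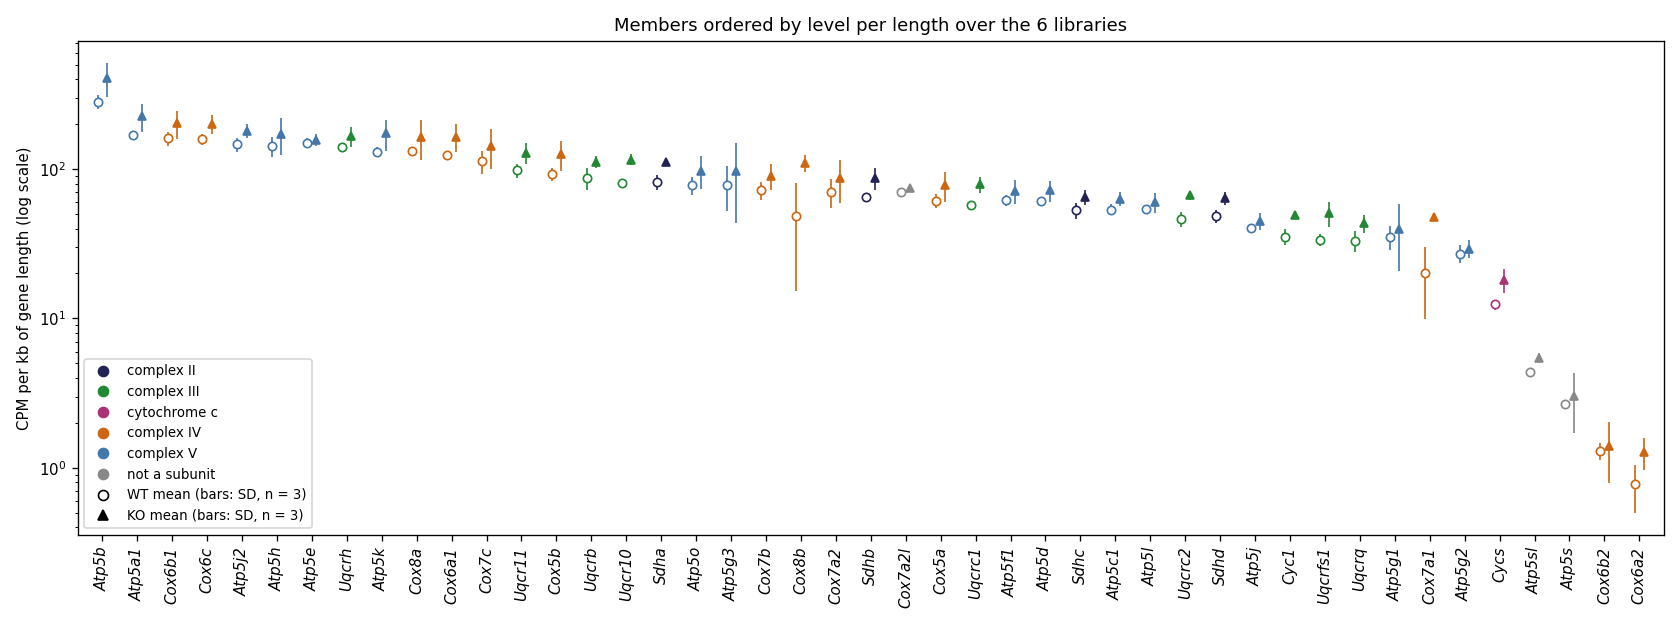
The y axis gives the level in CPM per kb on a log scale for each of the 45 genes, ordered by the mean over 6 libraries; open circles are WT means and triangles KO means (bars: SD, n = 3 each), coloured by complex. Atp5b is highest at 346, most subunits lie between 28.2 and 197, and Cycs, the tissue isoforms Cox6a2 and Cox6b2, Atp5s and Atp5sl lie below them.

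Levels of different genes were compared per length, as library-scaled counts per kb of the table's gene length (CPM per kb). The ATP synthase beta subunit gene Atp5b had the highest level, 283 ± 30.9 in WT and 409 ± 103 in KO (SD, n = 3 each). Atp5a1, the alpha subunit gene, followed at 168 ± 11.04 and 226 ± 48.3 (SD, n = 3 each). Cox6b1 (161 ± 17.7 in WT) and Cox6c (159 ± 14.04 in WT) came next and differed from Atp5a1 by less than their SD. Within complex III the hinge protein gene Uqcrh was highest (153 over the 6 libraries) and Uqcrq lowest (38.3). In complex II Sdha was highest (96.9) and Sdhd lowest (56.0). The lowest subunits were Cox6b2, known as a testis isoform (1.35), and Cox6a2, a heart and skeletal muscle isoform (1.02).

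Before the comparison, the libraries themselves need a description. Totals ran from 22223584 to 26982005 counts, and the 45 genes together took 0.294% to 0.508% of them. Col15a1 (chromosome 4, 47220884 to 47326037, mm9) was at 574, 407 and 501 CPM (counts scaled to library size) in the WT libraries and at 193, 198 and 91.0 CPM in the KO libraries, so every KO library was below every WT library. The transcript was thus reduced in KO, to 0.33 of the WT level in edgeR, and not absent, and the protein was not measured. WT 2 and KO 3 stood apart by sympathetic neuron transcripts: 12 markers summed to 3085 and 6134 CPM there and to 226 to 327 CPM in the other 4 libraries. The main counts over the 45 genes and over each complex are therefore also given without these libraries. Smooth muscle markers (8 genes, summed 5848 to 10339 CPM in WT and 6276 to 15417 CPM in KO), macrophage markers and endothelial markers were present in all libraries. The labels also name epithelial cells, whose 6 markers summed to 15.5 to 16.4 CPM in WT and 15.4 to 25.4 CPM in KO, with Epcam at 0.172 to 1.57, Cdh1 at 1.47 to 8.99 and Krt18 at 3.43 to 10.6 CPM.

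All 45 genes had a higher estimated level in KO. The median log2 fold change was 0.34 (1.26-fold), with a range from 0.071 (Atp5e) to 1.24 (Cox7a1), against a median of 0.068 over all 15937 genes tested, of which 60.9% were above 0. None of the 45 passed an adjusted p of 0.05 in edgeR's quasi-likelihood test, as none of all genes did (0%); the adjusted p of the members ran from 0.587 to 0.950. At an unadjusted p under 0.05, 13 of 45 were higher (4.02% of all genes) and 0 were lower (3.98% of all genes). In 21 of 45 every KO library was above every WT library (8.33% of all genes), and in 0 was every KO library below (8.38%). The counts by complex below stand beside the same shares of all genes. DESeq2 called 1 member, Uqcr10, and 63 of 14945 genes in all (0.422%), while limma-voom called 0. All 45 passed the filter on low counts, so no member is missing from these numbers. In bulk tissue, more cells of a type that is rich in mitochondria and more transcript per cell cannot be told apart.

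The KO libraries differed in how far they stood above WT. The 45 genes summed to 3542, 3380 and 3060 CPM in WT 1, WT 2 and WT 3 and to 3743, 4118 and 5255 CPM in KO 1, KO 2 and KO 3. KO 3 was the highest of the 6 libraries for 40 of 45 genes. KO 1 exceeded every WT library for 24 genes, KO 2 for 33 and KO 3 for 44, and their median members stood 9.60%, 19.1% and 55.9% above the WT mean. WT 3 was the lowest WT library for 29 of 45 genes and WT 1 the highest for 27.

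**Figure D2:**
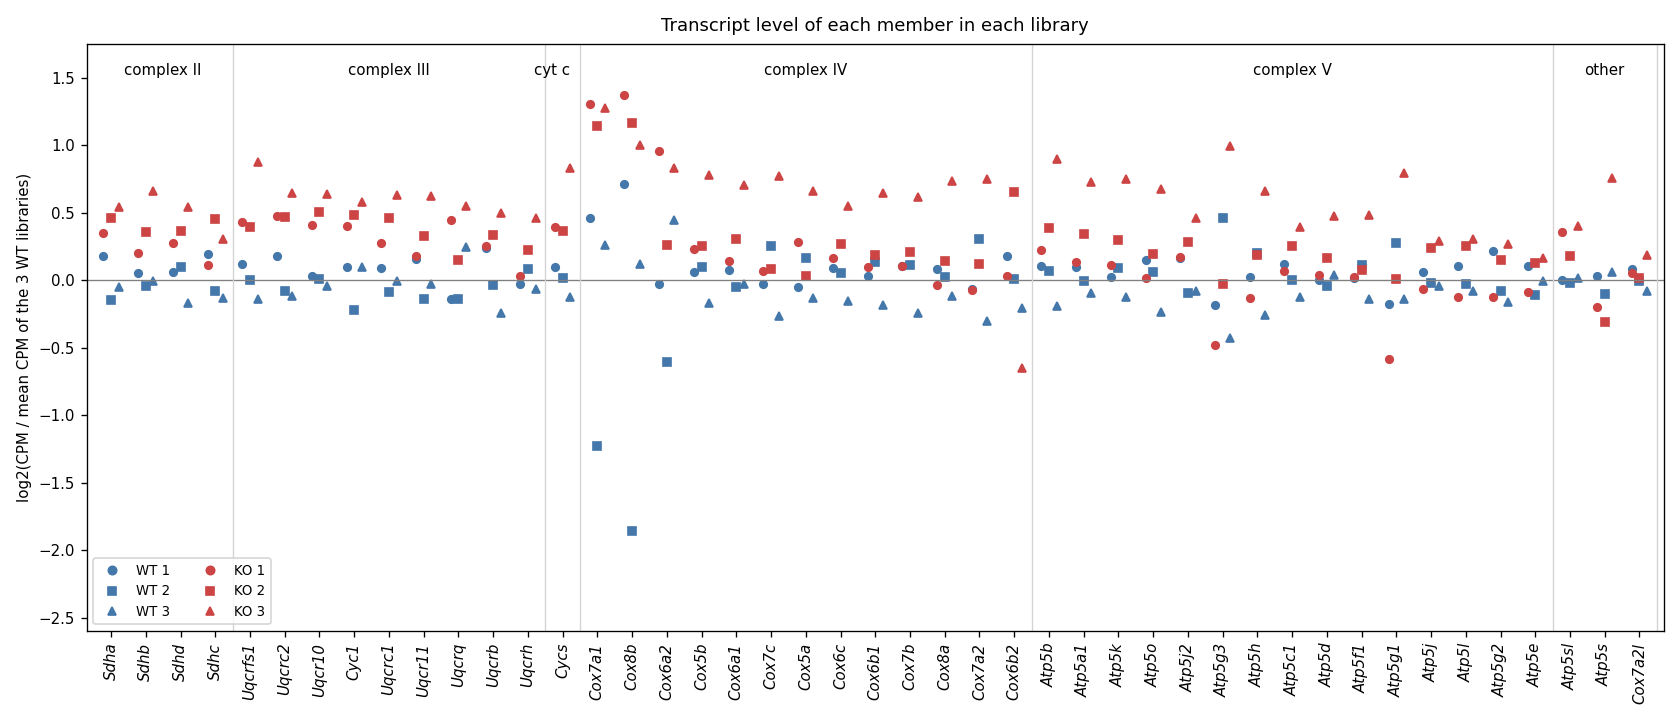
Each point is the level of a gene in a library as log2 of its CPM over the mean CPM of the 3 WT libraries (y axis), with genes grouped by complex on the x axis; blue is WT, red is KO, and the symbol gives the replicate. KO 3 (red triangles) is the highest library for 40 of 45 genes, and the KO and WT libraries separate for 7 of 9 genes of complex III but for 4 of 15 of complex V.

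Without KO 3, 42 of 45 genes had a log2 fold change above 0, against 49.5% of all genes, and the median was 0.22. With WT 2 left out as well, 41 were positive and 4 negative, again with a median of 0.22, against 50.5% of all genes. In that comparison 12 members were higher at an unadjusted p under 0.05 (4.35% of all genes), 10 of them among the 13 above, and in 26 both KO libraries were above both WT libraries (19.6% of all genes). Of the single libraries, leaving out WT 3 gave the lowest count at an unadjusted p: 5 members were under 0.05, 4 of them among the 13 (1.89% of all genes), and 41 were positive with a median of 0.19 (46.8% of all genes).

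Complex II had 4 of 4 genes higher, with a median log2 fold change of 0.41, and 3 of them separated the groups. Sdha (chromosome 13, 74459703 to 74487688, mm9) encodes the flavoprotein that oxidises succinate. It was at 264, 211 and 226 CPM in WT and at 299, 323 and 339.8 CPM in KO. Every KO library was above the highest WT library, WT 1. The log2 fold change was 0.45 (SE 0.13, unadjusted p 0.0137, edgeR adjusted p 0.587).

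Sdhb, the iron-sulfur subunit gene, was at 72.5, 67.8 and 69.6 CPM in WT and at 80.6, 89.4 and 110.4 CPM in KO, a log2 fold change of 0.42 (SE 0.14). Sdhd, a membrane anchor gene, was at 64.6, 66.4 and 55.3 CPM in WT and at 74.98, 79.7 and 90.5 CPM in KO (0.40, SE 0.12). For both genes the groups did not overlap and KO 3 was the highest library. The other anchor gene, Sdhc, was at 71.2, 58.9 and 56.7 CPM in WT and at 67.2, 85.4 and 77.0 CPM in KO (0.30, SE 0.14), and here KO 1 was below WT 1. Without WT 3 the log2 fold changes were 0.24 for Sdhd and 0.16 for Sdhc. All 4 genes were also higher without WT 2 and KO 3, with a median of 0.29.

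In complex III all 9 genes were higher with a median log2 fold change of 0.46, 6 had an unadjusted p under 0.05, and in 7 the groups did not overlap. Uqcr10 (chromosome 11, 4601971 to 4604347, mm9), a small supernumerary subunit gene, was at 36.4, 35.9 and 34.5 CPM in WT and at 47.2, 50.4 and 55.5 CPM in KO. The SD over the WT libraries was 0.991 CPM, and the lowest KO library was above them all. Its log2 fold change of 0.52 (SE 0.10) had an unadjusted p of 0.00238, the smallest of the 45 genes, with an adjusted p of 0.587 in edgeR and 0.0143 in DESeq2.

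The core protein gene Uqcrc2 (chromosome 7, 127778703 to 127803037, mm9) was at 98.8, 82.5 and 80.5 CPM in WT and at 121, 121 and 137 CPM in KO, a log2 fold change of 0.53 (SE 0.12). The other core protein gene, Uqcrc1, was at 101, 89.2 and 94.5 CPM in WT and at 115, 130.5 and 147 CPM in KO (0.46, SE 0.13). Cyc1 encodes cytochrome c1, the haem subunit that hands electrons to cytochrome c. It was at 44.97, 36.1 and 44.9 CPM in WT and at 55.5, 58.6 and 62.9 CPM in KO (0.49, SE 0.13). In these 3 genes the lowest KO library exceeded the highest WT library. The Rieske iron-sulfur protein gene Uqcrfs1, named after its values were seen, had the largest log2 fold change of the complex, 0.59 (SE 0.16). Exons of Uqcrc2 share 228 bases, 12.1% of its length, with the antisense gene Pdzd9, and the counting did not use strand.

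Groups overlapped for the other members of complex III that the naming rule selected. Uqcrh was at 75.1, 81.1 and 73.1 CPM in WT and at 77.9, 89.4 and 105 CPM in KO, where KO 1 was below WT 2, and its log2 fold change of 0.25 was 0.13 without KO 3. Uqcrq was at 15.1, 14.99 and 19.6 CPM in WT and at 22.5, 18.3 and 24.2 CPM in KO, where KO 2 was below WT 3. The median members of complex III stood 32.0%, 31.5% and 54.4% above the WT mean in KO 1, KO 2 and KO 3, so KO 1 and KO 2 were alike. Leaving out WT 2 and KO 3, all 9 genes were higher with a median of 0.32.

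Cycs (chromosome 6, 50512562 to 50516473, mm9) encodes cytochrome c, which shuttles electrons between complexes III and IV. It was at 40.7, 38.4 and 34.9 CPM in WT and at 49.9, 48.9 and 67.4 CPM in KO, with no overlap. The log2 fold change was 0.55 (SE 0.16, unadjusted p 0.0136, edgeR adjusted p 0.587), and 0.38 without WT 2 and KO 3. Cycs is known to have processed pseudogenes, and multi-mapping reads did not enter the counts. What this takes from its level, or from the levels and family shares of other members, was not tested.

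Complex IV had 13 of 13 genes higher, with a median log2 fold change of 0.35, of which 2 had an unadjusted p under 0.05 and 5 showed no overlap. The 5 subunit genes taken as ubiquitous (Cox5a, Cox5b, Cox6c, Cox7b and Cox7c) had log2 fold changes between 0.33 and 0.44. Cox5b was at 55.0, 56.5 and 46.9 CPM in WT and at 61.9, 62.8 and 90.4 CPM in KO (0.44, SE 0.18). Cox6c was at 84.9, 82.7 and 71.7 CPM in WT and at 89.2, 96.0 and 117 CPM in KO (0.34, SE 0.14). In both the groups separated, narrowly for KO 1 and widely for KO 3. Cox5b was at 0.24 without KO 3, and Cox6c at 0.19 without WT 3. The 13 genes were all higher without WT 2 and KO 3, with a median of 0.23.

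The largest log2 fold changes of all 45 genes were those of 2 isoforms that heart, skeletal muscle and brown fat are known to use. Cox7a1 (chromosome 7, 30969190 to 30971049, mm9) was at 10.1, 3.13 and 8.81 CPM in WT and at 18.1, 16.2 and 17.8 CPM in KO. The KO libraries lay close together, and WT 2 was far below the other WT libraries. The log2 fold change was 1.24 (SE 0.42, unadjusted p 0.0251, edgeR adjusted p 0.587), and 0.85 without WT 2 and KO 3.

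Cox8b (chromosome 7, 148084841 to 148086345, mm9) was at 28.6, 4.84 and 19.1 CPM in WT and at 45.2, 39.3 and 34.97 CPM in KO. WT 2 was again lowest, and no KO library overlapped WT. The log2 fold change was 1.19 (SE 0.59, unadjusted p 0.0890), 0.74 without WT 2, and 0.82 without WT 2 and KO 3. Cox6a2, the third muscle isoform gene, had 10 to 18 counts in the WT libraries and 14 to 23 in the KO libraries, and the groups overlapped (0.71, SE 0.39). Exons of Cox6a2 share 10.5% of their length with the antisense gene Itgad.

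Their partner genes, used in most tissues, differed less. Cox7a2 was at 50.6, 65.2 and 42.9 CPM in WT and at 50.3, 57.3 and 88.9 CPM in KO (0.31, SE 0.26). Cox8a was at 75.9, 72.8 and 66.0 CPM in WT and at 69.7, 78.9 and 119 CPM in KO (0.32, SE 0.21). In both genes KO 3 alone was above every WT library by a wide margin, and without it the log2 fold changes were 0.024 and 0.053. Cox6a1 was at 70.1, 64.1 and 65.1 CPM in WT and at 73.3, 82.0 and 108 CPM in KO, with no overlap (0.40, SE 0.16, unadjusted p 0.0471). Without KO 3 the log2 fold change of Cox6a1 was 0.22, and of the fits with 1 library left out its unadjusted p stayed under 0.05 without KO 1 only.

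The share of each isoform within its family, in reads per kb, does not depend on how libraries are scaled. Cox7a1 made up 29.1%, 8.99% and 29.7% of Cox7a1 and Cox7a2 in WT and 42.6%, 36.8% and 29.2% in KO. Both KO 1 and KO 2 were above every WT library, while KO 3 was within the WT range. The means were 22.6% ± 11.8 and 36.2% ± 6.73 (SD, n = 3 each), with an exact two-sided permutation p of 0.2 (0.6 adjusted over the 6 shares), where 0.1 is the smallest that 3 against 3 allows. Cox8b made up 36.2%, 9.08% and 30.2% of Cox8a and Cox8b in WT and 49.3%, 42.8% and 30.7% in KO, with the same order of libraries at the top and the same exact permutation p of 0.2 (0.6 adjusted). Cox6a2 was at most 1.08% of its family in any library (0.618% ± 0.220 in WT and 0.785% ± 0.260 in KO, SD, n = 3 each).

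**Figure D3:**
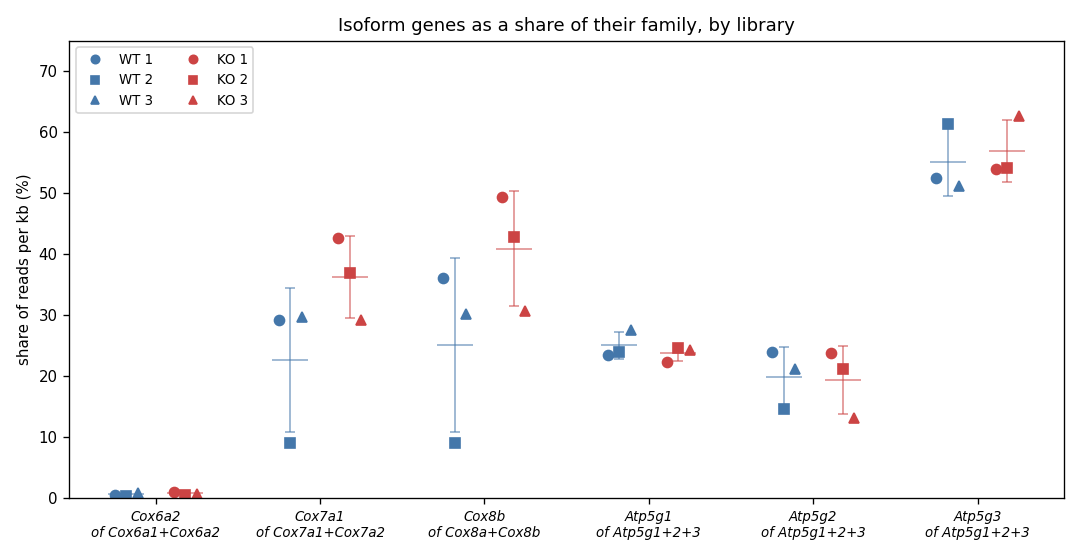
The y axis gives the share of an isoform gene in the reads per kb of its family (%), with points for libraries and bars for the mean ± SD of 3 WT (blue) and 3 KO (red) libraries. Cox7a1 and Cox8b are lowest in WT 2 (8.99% and 9.08%) and highest in KO 1 (42.6% and 49.3%), and the 3 Atp5g genes keep similar shares in both groups.

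Markers of fat were also higher in KO. This was not particular to fat, as all tested markers of skeletal muscle (13), neurons (12), smooth muscle (8) and epithelium (6) were higher too. Of endothelial markers 7 of 8 were higher, of adventitial fibroblast markers 4 of 8, and of macrophage markers 0 of 11. The 13 general adipocyte markers were all higher (median log2 fold change 0.87), and their summed level was 376 to 1067 CPM in WT and 1195 to 1723 CPM in KO, with WT 2 lowest and KO 1 highest and no marker at 0 in any library. Of the brown fat markers 9 were in the table and 8 were tested, all higher (median 0.95), and they summed to 211 to 495 CPM in WT and 619 to 699 CPM in KO. The groups overlapped for 5 of the 13 general adipocyte markers. They also overlapped for 3 of the 8 tested brown fat markers, among them Dio2 (0.37, SE 0.29) and Prdm16 (0.21, SE 0.33). Ucp1, the uncoupling protein that defines brown fat, was at 121, 25.3 and 95.3 CPM in WT and at 192, 225 and 289 CPM in KO, again lowest in WT 2. Within KO, Ucp1 was highest in KO 3, and Cox7a1 and Cox8b were highest in KO 1. Zic1, a marker of classical brown fat, was near the floor throughout, with 2 counts each in WT 1 and WT 3 and 0 in WT 2 and the 3 KO libraries. Lhx8, of the same list, was also low, with 2, 6 and 11 counts in WT and 14, 2 and 12 in KO (0.68, SE 0.81). The 13 skeletal muscle markers summed to 15.6 to 128 CPM in WT and 25.1 to 442 CPM in KO, with KO 1 and WT 1 highest. Of 12 cardiac muscle markers 9 were tested, all higher (median log2 fold change 0.73). They summed to 129 to 213 CPM in WT and 216 to 283 CPM in KO. Ryr2 was at 137, 119 and 108 CPM in WT and at 169, 155 and 229 CPM in KO. Myh6 was at 2.36, 4.20 and 68.9 CPM in WT and at 26.7, 72.0 and 30.4 CPM in KO. The part of fat or muscle in the isoform values was not tested. The mean log2 CPM of the adipocyte markers was 5.51, 4.05 and 5.19 in WT and 6.15, 5.72 and 5.64 in KO. Every KO library was thus above every WT library, and a fit with this level as a covariate cannot separate it from genotype. In that edgeR fit all 45 genes had a positive log2 fold change (52.3% of all genes), with a median of 0.43. An unadjusted p under 0.05 was reached by 2 genes, Sdhd and Uqcr10 (3.48% of all genes).

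Complex V had the smallest median of the 4 complexes, 0.24, with 15 of 15 genes higher, 0 at an unadjusted p under 0.05 and 4 without overlap. Atp5b (chromosome 10, 127520363 to 127527444, mm9) encodes the catalytic beta subunit. It was at 572, 557 and 465 CPM in WT and at 621, 695 and 989 CPM in KO (0.53, SE 0.22, unadjusted p 0.05001, edgeR adjusted p 0.617). Atp5a1, the alpha subunit gene, was at 437, 408 and 383 CPM in WT and at 449, 519.6 and 678 CPM in KO (0.42, SE 0.19). Both were above WT in every KO library, by a small margin in KO 1. Without KO 3 the log2 fold changes were 0.31 for Atp5b and 0.24 for Atp5a1.

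In the stalk and membrane part, Atp5j2 (subunit f) was at 78.2, 65.2 and 65.8 CPM in WT and at 78.4, 84.7 and 96.0 CPM in KO (0.31, SE 0.13, and 0.20 without WT 3). Atp5k (subunit e) was at 38.7, 40.6 and 34.8 CPM in WT and at 41.1, 46.6 and 63.9 CPM in KO (0.41, SE 0.18, and 0.21 without KO 3). These complete the 4 genes without overlap, and in both KO 1 was within 1 CPM of the highest WT library. KO 1 exceeded every WT library for 4 of 15 genes of the complex, KO 2 for 10 and KO 3 for 15, with median members 1.05%, 14.3% and 40.03% above the WT mean. When WT 2 and KO 3 were left out, 12 of 15 genes were higher, with a median of 0.10. Whether complex V differed from complex III in its response to the deletion was not tested.

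The membrane ring of the ATP synthase is built from subunit c, which 3 genes encode with the same mature protein. All 3 overlapped between the groups. Atp5g3 was at 50.1, 78.4 and 42.4 CPM in WT and at 40.8, 55.9 and 114 CPM in KO (0.30, SE 0.43). Atp5g1 was at 26.8, 36.7 and 27.5 CPM in WT and at 20.2, 30.5 and 52.6 CPM in KO (0.18, SE 0.36). For both genes WT 2 and KO 3, the libraries with neuronal transcripts, were the highest of their group, and KO 1 was the lowest of all 6. Atp5g2 was at 20.4, 16.7 and 15.7 CPM in WT and at 16.1, 19.5 and 21.2 CPM in KO (0.11, SE 0.16).

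Without WT 2 and KO 3 the log2 fold changes were 0.054 for Atp5g3, -0.11 for Atp5g1 and -0.027 for Atp5g2. Atp5g3 made up 55.0% ± 5.57 of the family in WT and 56.9% ± 5.02 in KO, Atp5g1 25.0% ± 2.26 and 23.7% ± 1.28, and Atp5g2 19.9% ± 4.81 and 19.4% ± 5.61 (SD, n = 3 each). The exact permutation p was 0.5, 0.6 and 0.7 (each 0.7 adjusted over the 6 shares). Within each group the Atp5g3 share was highest and the Atp5g2 share lowest in the neuron-rich library: 61.4% and 14.6% in WT 2, and 62.7% and 13.1% in KO 3. The part of neurons in these values was not tested.

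**Figure D4:**
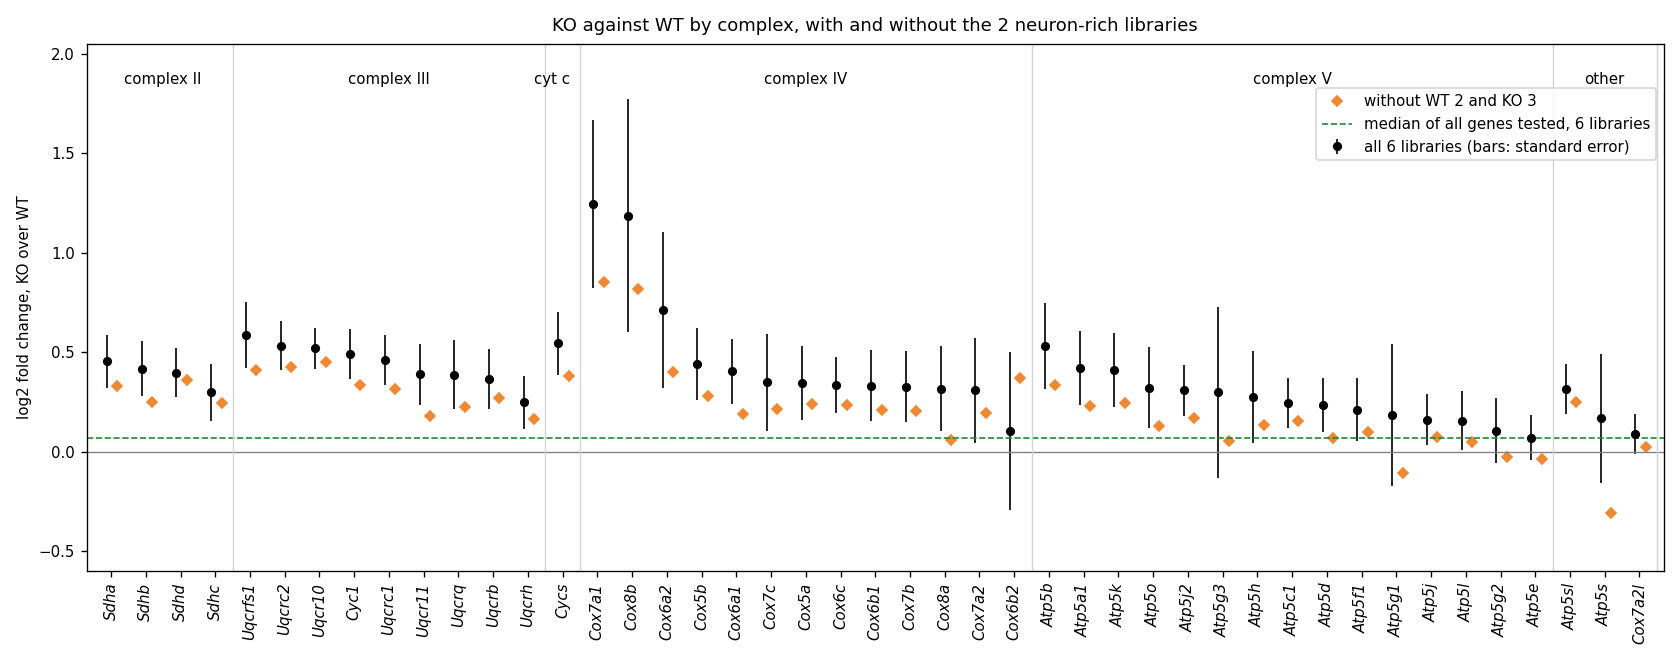
Black points are log2 fold changes of KO over WT from all 6 libraries with their standard errors, and orange diamonds are those without WT 2 and KO 3; the dashed line marks the median of all genes tested, 0.068. All 45 black points are above 0, and the orange points stay above 0 for every gene of complexes II, III and IV and for 12 of 15 of complex V.

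Among the genes that share a name but are no subunit, Cox7a2l, a factor that helps join complexes III and IV into supercomplexes, was at 85.5, 80.1 and 76.2 CPM in WT and at 83.4, 81.7 and 91.8 CPM in KO (0.088, SE 0.10), and the groups overlapped. Atp5s was at 3.73 to 4.17 CPM in the WT libraries and at 3.23 to 6.74 CPM in the KO libraries and overlapped as well (0.17, SE 0.33). Atp5sl, named after its values were seen, had means of 10.7 ± 0.153 (WT) and 13.3 ± 1.05 CPM (KO; SD, n = 3 each) with no overlap and a log2 fold change of 0.31 (SE 0.13, unadjusted p 0.0453).

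Of 7 further subunit and related genes of the same complexes, 6 were tested and 6 were higher, with a median log2 fold change of 0.29 and 1 at an unadjusted p under 0.05. Cox4i1, the usual isoform of the regulatory subunit IV, was at 173, 165 and 154 CPM in WT and at 167, 191 and 243 CPM in KO (0.29, SE 0.16), with KO 1 inside the WT range. Cox4i2, the isoform known from lung and low oxygen, had a mean of 3.30 ± 1.23 CPM over WT and of 3.54 ± 0.779 CPM over KO libraries (SD, n = 3 each). Ndufa4, a subunit of complex IV despite its name, was at 55.3, 60.9 and 48.0 CPM in WT and at 62.0, 70.5 and 99.0 CPM in KO (0.50, SE 0.20, unadjusted p 0.0484).

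The counts for these gene lists, also those of fat, muscle and other cell types above, stand beside the same background over all genes. That background is 60.9% above 0, 4.02% higher at an unadjusted p under 0.05, and 8.33% with every KO library above every WT library. Assembly factors, which build the complexes without being part of them, were higher in 24 of 26 tested, with a median of 0.22, and 2 had an unadjusted p under 0.05. Tmem70, an assembly factor of the ATP synthase, was at 18.0, 18.0 and 16.2 CPM in WT and at 22.03, 22.6 and 22.4 CPM in KO (0.36, SE 0.10). Cox17, a copper chaperone for complex IV, was at 21.4, 17.7 and 17.0 CPM in WT and at 23.9, 22.6 and 27.8 CPM in KO (0.40, SE 0.15). Unlike most members, Tmem70 was not highest in KO 3.

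Nuclear subunits of complex I were higher in 35 of 35 tested, with a median of 0.31, and 11 had an unadjusted p under 0.05. Ndufv1, the flavoprotein where NADH is oxidised, was at 81.3, 69.4 and 69.2 CPM in WT and at 90.5, 105.9 and 121 CPM in KO (0.53, SE 0.14). Of the citric acid cycle enzymes 13 of 13 were higher with a median of 0.47, 12 had an unadjusted p under 0.05, and in all 13 every KO library was above every WT library. In the summed level of this list KO 1, KO 2 and KO 3 were close together (2078, 2125 and 2177 CPM) and WT 2 was lowest (1247 CPM against 1634 and 1499 CPM).

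Of 13 tested regulators of mitochondrial biogenesis 11 were higher, with a median of 0.22, and 4 had an unadjusted p under 0.05. Ppargc1a, the coactivator PGC-1alpha, was at 9.50, 7.60 and 12.2 CPM in WT and at 19.2, 15.1 and 18.8 CPM in KO (0.85, SE 0.21, unadjusted p 0.00702). Ppara, a nuclear receptor for fatty acids, was at 23.7, 16.6 and 24.9 CPM in WT and at 48.9, 37.1 and 49.8 CPM in KO (1.06, SE 0.21), with an adjusted p of 0.587 in edgeR and 0.00862 in DESeq2. Neither gene overlapped between the groups. The genes of the factors whose motifs were searched, named for that reason, gave log2 fold changes of 0.018 for Nrf1, 0.22 for Gabpa and 0.057 for Yy1, and all 3 overlapped. Gabpb1, the partner subunit gene of GABP, was at 19.3, 18.96 and 18.3 CPM in WT and at 16.7, 16.4 and 14.8 CPM in KO (-0.24, SE 0.11, unadjusted p 0.0687), with every KO library below every WT library.

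**Figure D5:**
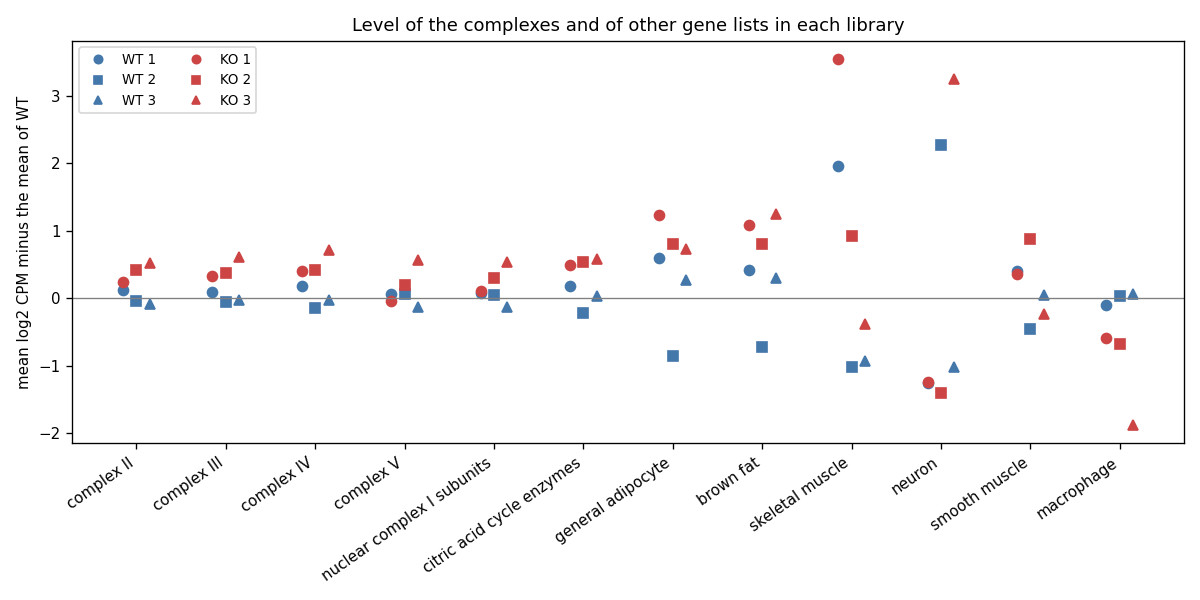
The y axis gives the mean log2 CPM of each gene list minus its mean over the WT libraries, with 1 point per library (blue WT, red KO). Complexes II to V are highest in KO 3, fat markers are lowest in WT 2, neuron markers are high in WT 2 and KO 3, skeletal muscle markers are highest in KO 1, and macrophage markers are lowest in KO 3.

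Macrophage markers stood on the other side: all 11 tested had a negative log2 fold change (median -0.92), and their summed level was 2439.6 to 2854 CPM in WT and 798 to 1790.3 CPM in KO, with KO 3 lowest. KO 3 was thus the library with the highest level of complexes II to V and of neuron markers and the lowest of macrophage markers. The part of these cell types in the values of the 45 genes was not tested.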

How the data were processed

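Raw read counts per gene were deposited by the authors. Per the file headers, featureCounts 1.4.6-p4 counted reads over exons of an mm9 annotation, with no strand or multi-mapping option set. Per the submitters' processing notes, CASAVA, STAR 3.0, Subread and DESeq2 were also used. Between 32.6% and 36.9% of alignments were assigned to genes, and 29.9% to 33.4% were multi-mapping and not counted.

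KO and WT were compared with edgeR 4.0.16 (glmQLFit and glmQLFTest, two-sided, TMM, filterByExpr with a minimum count of 10) in R 4.3.3, with Benjamini-Hochberg adjustment over 15937 genes and a threshold of 0.05. CPM are TMM-scaled. The script was tested on simulated data. Alternatives were DESeq2 1.42.0, limma-voom 3.58.1, other scalings, filters and thresholds, covariates, and libraries left out. The members, the 16 lists and the naming rule were chosen with earlier results of these data known. Named were Col15a1; all of complex II; up to 4 of complexes III, IV and V by smallest unadjusted p; isoform genes, Cycs and Cyc1; the highest and lowest level per complex; and, per list, genes with the highest level or smallest p. Other genes were named after their values were seen. Some list genes are not reported here by name. Intervals cover counting error only. Promoter windows are from RefSeq.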

Additional observations from a re-analysis of the deposited data

How the results depend on the processing

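With 3 mice per group, edgeR called 0 members under every scaling, filter and covariate, at a threshold of 0.1, in limma-voom and with each library left out (range 0 to 0). DESeq2 called 1, Uqcr10 (log2 fold change 0.50, adjusted p 0.0143), and it also passed Col15a1 (-1.64, adjusted p 0.00219). With each library left out, 41 to 45 members were higher and the median was 0.19 to 0.40. Members without overlap ran from 18 without WT 3 (8.04% of all genes) to 29 without KO 1 (9.21%). Without KO 3 they were 21, where the share of all genes was highest (14.9%). From 5 members without WT 3 (1.89%) to 14 without WT 1 (3.88%) had an unadjusted p under 0.05. That last count was 13 with all libraries (4.02%), 9 with total counts (3.27%), 27 with an indicator of WT 2 and KO 3 as a covariate (9.21%), and 2 with the adipocyte covariate (3.48%). The median of complex III was 0.32 without WT 2 and KO 3 and 0.46 with all. The share of all genes above 0 was 60.9% with TMM, 57.3% with DESeq2 size factors and 53.1% with total counts, and all 45 members were above 0 in each. Sample quality weights left 43 above 0, and a minimum count of 50 left 43 tested.

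Some named genes turned in direction. Atp5g1 was at -0.11 with sample quality weights, -0.11 without WT 2 and KO 3, and -0.26 to 0.38 with a library left out. Atp5g2 was at -0.027 without both and -0.040 to 0.22, Atp5g3 at -0.24 to 0.60 and Cox7a2l at -0.026 to 0.13 with a library left out. The KO minus WT difference in family share ran from -2.07 to 0.0043 percentage points for Atp5g1, -3.23 to 2.58 for Atp5g2 and -1.04 to 5.05 for Atp5g3. For Cox7a1 and Cox8b it stayed positive (6.77 to 17.1 and 7.73 to 21.3). Without WT 2 and KO 3, a choice for the shares made after seeing the data, it was 10.3 for Cox7a1 and 12.9 for Cox8b. The cause of these changes was not tested. The labels number the mice 1 to 3 in both groups. Deviations of same-numbered libraries from their group means correlated at 0.43, -0.68 and -0.58. Those of WT 2 and KO 3, the neuron-rich libraries, correlated at 0.77, so these values cannot show whether the mice were paired. With the replicate number as a block, 6 members had an unadjusted p under 0.05 (2.33% of all genes).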
